A study of Mus musculus with 2 samples.

Results

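Tcf7 and Id3 are described here, 2 of the 2000 genes in the deposited tables, chosen by name and followed across CD4 and CD8 cells, dividing and non-dividing cells, and both libraries. Tcf7 encodes TCF-1, a transcription factor of the TCF/LEF family. Id3 encodes an inhibitor that binds E proteins and keeps them from DNA. Both libraries came from spleens of wild-type BALB/c recipients, given lethal irradiation and then wild-type C57BL/6 bone marrow and spleen cells, as in allogeneic haematopoietic cell transplantation (HCT). Recipients in the anti-IL-2 group were given a monoclonal antibody to IL-2, the cytokine that drives expansion of stimulated T cells. Those in the other group were given tacrolimus, which inhibits calcineurin and so keeps NFAT from acting after T-cell receptor signals. Treatment ran from day 0 to day 6, and spleens were taken on day 6. Each treatment was 1 library, so treatment and library cannot be told apart, no difference has a replicate check and no p-value is given. How many recipients were pooled is not stated in the labels.

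TCF-1 is needed for early T-cell development, and in the periphery it marks naive, central memory and stem-like T cells, which keep the capacity to renew and to give rise to effector progeny. Its level falls when CD8 cells become terminal effectors, and it takes part in the formation of follicular helper cells among CD4 cells. Id3 and its relative Id2 both restrain E proteins, but in CD8 cells Id3 is linked to long-lived memory precursors and Id2 to effector cells. A cell that carries both transcripts is therefore often taken as stem-like.

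Tcf7 (ENSMUSG00000000782) is a protein-coding gene on the minus strand at chr11:52252371-52283014, with 2 annotated transcripts. Id3 (ENSMUSG00000007872) is a protein-coding gene on the plus strand at chr4:136143497-136145755, with 3 annotated transcripts. Positions are those of mm10, the build named for these files, in the GENCODE M21 annotation. Because the 2 transcripts were detected together in single cells (below), the RefSeq promoter windows of GRCm38.p6 were searched on both strands for the E-boxes CAGCTG and CACCTG (or CAGGTG), the kind of site E proteins bind, and for the TCF/LEF letters CTTTGAA and CTTTGAT. A window ran from 250 bases before to 50 bases after a start site, 300 bases in all. Tcf7 had 2 such windows and Id3 had 1, at chr4:136143572-136143871. The 2 E-box matches lay in the Tcf7 windows and are shown 5′ to 3′ on the gene's strand with the E-box in capitals.
Tcf7 chr11:52283157-52283184, minus strand: gcaccatgccgCAGCTGgactcgggcgg
Tcf7 chr11:52282546-52282567, minus strand: cccctccagccCAGGTGactga
CAGCTG began 159 bases before the RefSeq start site in one Tcf7 window, and CAGGTG began 39 bases after the start site of the other. The Id3 window held neither E-box, and none of the 3 windows held the TCF/LEF letters. Of 32817 RefSeq windows of this length, 16.3% held CAGCTG, 20.2% held CACCTG or CAGGTG, and 8.65% held the TCF/LEF letters. A match describes the letters in the window and says nothing of binding.

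The tables held 1551 anti-IL-2 and 1688 tacrolimus cells. A minimum of 200 detected genes left 1233 and 1475 cells, with medians of 12751 and 13254 unique molecular identifiers (UMIs, each counting 1 captured RNA molecule). The anti-IL-2 values had the form of batch-integrated data, with values below 0, although no source used here states an integration. UMIs were read from them after an estimated shift was removed, which moved 140 Tcf7 and 49 Id3 calls. In a simulated library the same procedure lost more detections than it added and understated the ratio of Tcf7 to Id3 co-detection. The shares with either gene fell more in dividing than in non-dividing simulated cells (below). A total of 4 barcodes occurred in both libraries. Of the 21 listed T-cell markers, the 6 in the tables were Cd4, Cd8a, Cd8b1, Cd5, Cd6 and Icos, and no CD3 gene was among them. A rule weighed these markers against those of other lineages, NK and myeloid cells included. It did not call 152 anti-IL-2 and 186 tacrolimus cells T cells, and they were set aside. Without the NK and myeloid lists T cells numbered 1165 and 1426, against 1081 and 1289 with them. The number set aside thus depends on the rule. Some of the cells set aside had B-lineage or erythroid markers and no T-cell marker (below). CD4 cells (Cd4 without Cd8a or Cd8b1) numbered 273 and 281, and CD8 cells (Cd8a or Cd8b1 without Cd4) 714 and 887. Another 83 and 91 cells held both, and 11 and 30 held neither. A cell was called dividing when at least 0.5 of the 20 measured S phase genes or of the 25 measured G2 and M phase genes were detected, and 77 and 87 cells lay near that limit.

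Tcf7 was found in most non-dividing CD4 cells under anti-IL-2 and in few CD8 cells under tacrolimus. In the anti-IL-2 library it was detected, as at least 1 UMI, in 186 of 225 non-dividing CD4 cells (82.7%, exact Clopper-Pearson 95% interval 77.1 to 87.4%) and in 12 of 48 dividing CD4 cells (25.0%, 13.6 to 39.6%). It was in 151 of 290 non-dividing CD8 cells (52.1%, 46.2 to 57.9%) and in 80 of 424 dividing CD8 cells (18.9%, 15.3 to 22.9%). Within each lineage the non-dividing cells thus held Tcf7 more often, and non-dividing CD4 cells held it more often than non-dividing CD8 cells. In the tacrolimus library Tcf7 was in 31 of 98 non-dividing CD4 cells (31.6%, 22.6 to 41.8%) and in 13 of 183 dividing ones (7.10%, 3.84 to 11.8%). It was in 8 of 141 non-dividing CD8 cells (5.67%, 2.48 to 10.9%) and in 20 of 746 dividing CD8 cells (2.68%, 1.65 to 4.11%). The intervals cover counting error only.

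Id3 followed the same order over the 6 highest classes. In the anti-IL-2 library it was in 130 of 225 non-dividing CD4 cells (57.8%, 51.0 to 64.3%), 12 of 48 dividing CD4 cells (25.0%, 13.6 to 39.6%), 128 of 290 non-dividing CD8 cells (44.1%, 38.3 to 50.1%) and 68 of 424 dividing CD8 cells (16.0%, 12.7 to 19.9%). In the tacrolimus library it was in 25 of 98 non-dividing CD4 cells (25.5%, 17.2 to 35.3%), 16 of 183 dividing CD4 cells (8.74%, 5.08 to 13.8%), 3 of 141 non-dividing CD8 cells (2.13%, 0.441 to 6.09%) and 32 of 746 dividing CD8 cells (4.29%, 2.95 to 6.00%). For both genes the order ran from anti-IL-2 non-dividing CD4 through anti-IL-2 non-dividing CD8, tacrolimus non-dividing CD4, anti-IL-2 dividing CD4 and anti-IL-2 dividing CD8 to tacrolimus dividing CD4. The intervals of neighbours were apart between the highest class and the next, and between that class and tacrolimus non-dividing CD4 cells. For Tcf7 they were also apart between anti-IL-2 dividing CD8 and tacrolimus dividing CD4 cells. All other neighbours overlapped.

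**Figure D1:**
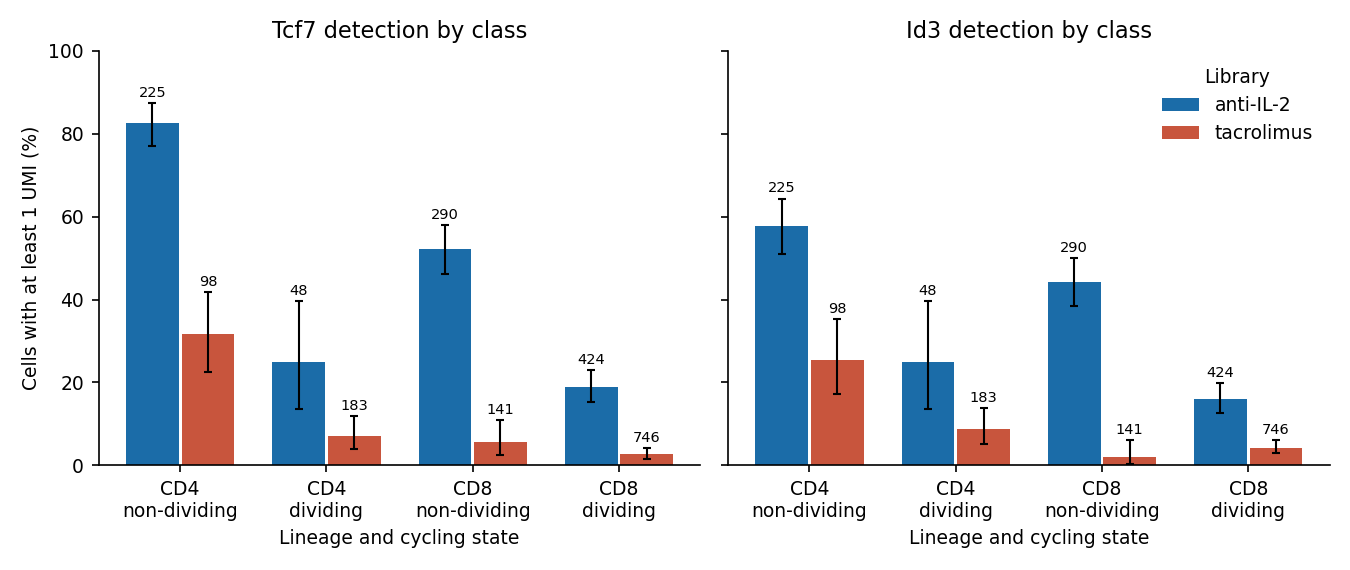
Bars give the detection (% of cells, 1 UMI or more) of Tcf7 (left) or Id3 (right) by lineage, cycling state and library, with exact 95% intervals for counting error and the number of cells above each bar. The tallest bars are non-dividing CD4 cells of the anti-IL-2 library (82.7% for Tcf7, 57.8% for Id3), and the shortest are CD8 cells of the tacrolimus library.

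Where the genes were detected, the number of UMIs also differed. Among non-dividing anti-IL-2 CD4 cells 37.3% had 4 or more Tcf7 UMIs, with a median of 3 in cells with the gene and a maximum of 21, and 18.2% had 4 or more Id3 UMIs. Among dividing cells of that class 6.25% and 2.08% reached 4 UMIs. Among non-dividing anti-IL-2 CD8 cells 12.1% had 4 or more Tcf7 UMIs and 17.9% had 4 or more of Id3. Tacrolimus CD4 cells reached 4 Tcf7 UMIs in 16.3% of non-dividing and 1.64% of dividing cells. In tacrolimus CD8 cells 17 of the 28 cells with Tcf7 and 20 of the 35 with Id3 held a single UMI.

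The tacrolimus CD8 shares were low enough to lie under a limit for stray RNA, but that limit came from few cells. B-lineage or erythroid cells, which had no T-cell marker and at least 2 markers of their own lineage, served as the reference cells. Whether such B-lineage cells express Id3 themselves was not tested. Of 31 such cells in the anti-IL-2 library (median 10316 UMIs), 1 held Tcf7 (3.23%, 0.0816 to 16.7%) and 0 held Id3, which leaves room for up to 9.68%. Of 24 such cells in the tacrolimus library (median 16013 UMIs), 0 held either gene, which allows a share of up to 12.5%. The shares of both genes in tacrolimus CD8 cells, dividing or not, and in tacrolimus dividing CD4 cells lie under that limit. Of the tacrolimus CD8 cells 4 held 4 or more Tcf7 UMIs and 8 held 4 or more Id3 UMIs. Whether stray RNA gave these shares was not tested.

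Between the libraries the difference in detection was wider in CD8 than in CD4 cells on a ratio scale. Over all CD4 cells the share with Tcf7 was 72.5% under anti-IL-2 and 15.7% under tacrolimus (ratio 4.63) and Id3 in 52.0% and 14.6% (3.56). Over all CD8 cells Tcf7 was in 32.4% and 3.16% (ratio 10.2) and Id3 in 27.5% and 3.95% (6.96). The tacrolimus CD8 shares that these ratios divide by lie under the limit of 12.5% given above, and most rest on single UMIs. In percentage points the order was the other way, with 56.9 points for Tcf7 in CD4 cells and 29.2 in CD8 cells. The libraries also differed in cycling, and within non-dividing cells alone the differences were 51.0 points for Tcf7 and 32.3 for Id3 in CD4 cells, and 46.4 and 42.0 points in CD8 cells. Within dividing cells they were 17.9 and 16.3 points in CD4 cells, and 16.2 and 11.7 in CD8 cells. These contrasts set recovered UMIs of integrated values against UMIs read directly, and the part this plays in them was not tested.

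Dividing cells were deeper than non-dividing cells, which raises detection of any gene in them. The median UMI total was 20183 in dividing against 9376 in non-dividing anti-IL-2 CD4 cells, 19483 against 11291 in anti-IL-2 CD8 cells, 14279 against 8703 in tacrolimus CD4 cells and 15800 against 8680 in tacrolimus CD8 cells. Each cell was therefore also thinned at random to 5000 UMIs. Tcf7 was then in 73.1% of non-dividing and 10.6% of dividing anti-IL-2 CD4 cells, and in 38.2% and 11.5% of anti-IL-2 CD8 cells. Id3 was in 46.2% and 8.51% of anti-IL-2 CD4 cells, and in 34.9% and 6.25% of anti-IL-2 CD8 cells. Among tacrolimus CD4 cells thinning left Tcf7 in 29.2% of non-dividing and 3.95% of dividing cells, and Id3 in 19.8% and 4.52%. At matched depth the gap between non-dividing and dividing cells thus remained for both genes in these 3 classes. Thinned shares in tacrolimus CD8 cells were 3.57% and 1.77% for Tcf7 and 2.14% and 1.63% for Id3, with overlapping intervals.

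Standardising over 5 depth bins gave the same picture. The difference, non-dividing minus dividing, was 56.1 points for Tcf7 and 41.6 for Id3 in anti-IL-2 CD4 cells, and 40.2 and 28.4 points in anti-IL-2 CD8 cells. It was 19.0 and 10.1 points in tacrolimus CD4 cells. Among tacrolimus CD8 cells it was -0.23 points for Tcf7, against 2.99 without standardising, and -2.75 for Id3. Some bins were thin, with as few as 2 dividing cells in anti-IL-2 CD4, 6 non-dividing cells in anti-IL-2 CD8 and 1 non-dividing cell in each tacrolimus class.

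In anti-IL-2 CD8 cells detection of both genes stepped down between low and middling cell cycle gene content. Cells were placed in 5 bins by the share of cell cycle genes detected, taken from whichever of the S or the G2 and M list was higher. Among anti-IL-2 CD8 cells Tcf7 was in 59.9% of cells with under 20% of these genes, in 43 of 86 at 20 to 40%, and in 14.9%, 18.8% and 20.1% in the 3 bins above. Id3 was in 47.9%, 45.3%, 14.9%, 15.3% and 17.5% of the same cells. The first 2 bins lay apart from the other 3 for both genes, and those 3 overlapped among themselves. Among anti-IL-2 CD4 cells Tcf7 was in 86.4% and 72.7% of cells in the lowest bins and in 23.7% of the 38 cells in the highest. The bins between held only 5 and 9 cells. Id3 was in 62.7% and 43.2% of cells in those lowest bins and in 26.3% of cells in the highest. For tacrolimus CD4 cells the Tcf7 shares were 37.5%, 33.3%, 4.76%, 0% (0 of 33, up to 9.09%) and 9.09% of cells, and those of Id3 were 31.3%, 25.0%, 19.0%, 9.09% and 6.99%. These bins held 48, 36, 21, 33 and 143 cells, and the intervals of neighbouring bins overlapped for both genes. For Tcf7 the first 2 bins lay apart from the last 2. The top bin was again the deepest, at a median of 15789 UMIs against 8225 in the lowest.

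**Figure D2:**
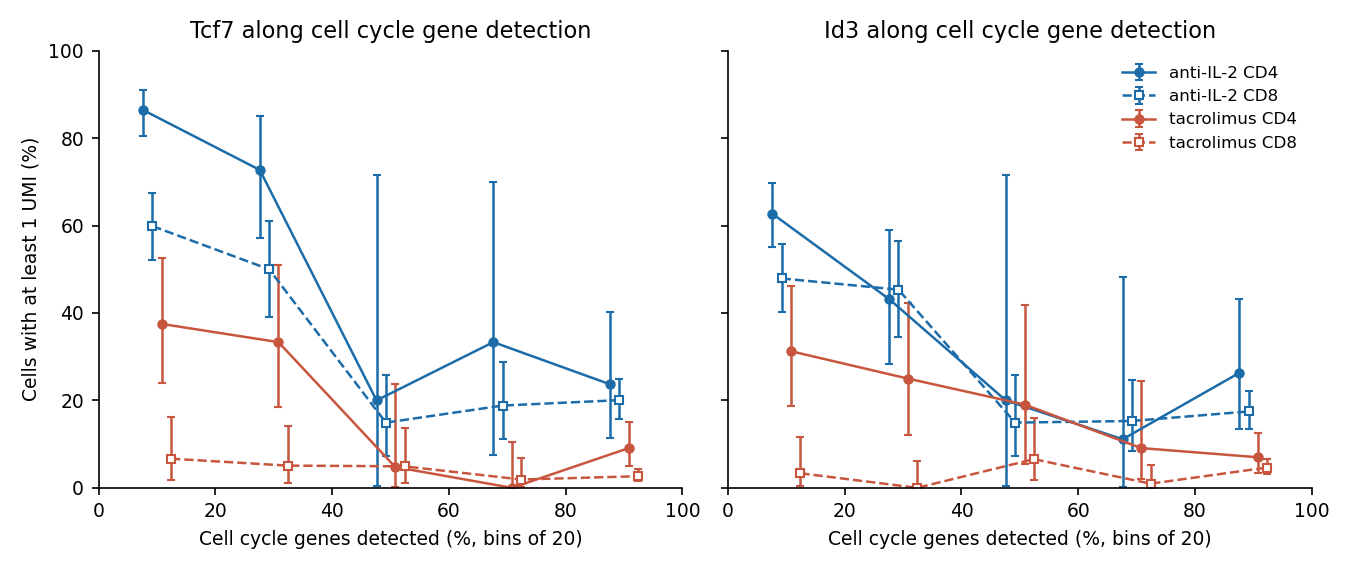
Points give the detection (% of cells, 1 UMI or more) of Tcf7 (left) or Id3 (right) against the share of cell cycle genes detected (%), in bins of 20, with exact 95% intervals. In anti-IL-2 CD8 cells Tcf7 went from 43 of 86 cells in the second bin to 14.9% in the third, while the tacrolimus CD8 points stay at 6.67% or lower.

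Dividing cells were also split by which of the lists they passed, as values without a test. Of anti-IL-2 CD8 cells Tcf7 was in 18.8% of 85 cells past the limit for the S list alone, 13.1% of 61 cells past it for the G2 and M list alone, and 20.1% of 278 cells past both. Id3 was in 11.8%, 8.20% and 19.1% of these cells, with overlapping intervals. Id3 was in 8 of 34 tacrolimus CD4 cells past the S limit alone (23.5%, 10.7 to 41.2%) and in 7 of 128 past both (5.47%, 2.23 to 10.9%), with intervals that barely overlap.

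Tcf7 and Id3 were detected together in single cells more often than independence would give in all 4 classes. Of the anti-IL-2 CD8 cells 159 held both, 72 Tcf7 alone, 37 Id3 alone and 446 neither, where independence would give 63.4 cells with both. Id3 was in 68.8% of cells with Tcf7 (62.4 to 74.7%) and in 7.66% of cells without it (5.45 to 10.4%). The odds ratio over the 5 depth bins (Mantel-Haenszel, a description within 1 library) was 24.2, and 22.2 when bins were also split by cycling. With the integration shift left in the values it was 9.13.

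The other classes showed the same direction. Of anti-IL-2 CD4 cells 128 held both against 102.99 under independence, with Id3 in 64.6% of cells with Tcf7 and 18.7% of those without it (odds ratio 7.52, and 6.19 with cycling split). Of tacrolimus CD4 cells 25 held both against 6.42, with Id3 in 56.8% (41.0 to 71.7%) and 6.75% (3.91 to 10.7%), an odds ratio of 19.0 and 18.5. Among tacrolimus CD8 cells 11 held both against 1.10, with Id3 in 11 of 28 cells with Tcf7 (39.3%, 21.5 to 59.4%) and 2.79% of the rest, an odds ratio of 22.7. Those 11 cells had a median of 27177 UMIs, against 14386 in cells with neither gene, and whether some of them are 2 cells in 1 droplet was not tested. In the other 3 classes cells with both genes were shallower than cells with neither, at 9712 against 13685, 12877 against 16045 and 9440 against 11819 UMIs.

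Read the other way, most Id3 cells held Tcf7 in all classes but tacrolimus CD8. Tcf7 was in 90.1% of Id3 cells among anti-IL-2 CD4 cells (84.0 to 94.5%), 81.1% among anti-IL-2 CD8 cells (74.9 to 86.3%), 61% among tacrolimus CD4 cells (44.5 to 75.8%) and 31.4% among tacrolimus CD8 cells (16.9 to 49.3%). The direction was the same in both cycling states of each class. Id3 was in 74.8% of non-dividing and 57.5% of dividing Tcf7 cells of the anti-IL-2 CD8 class, against 10.8% and 6.40% of its cells without Tcf7. Tacrolimus CD4 cells held it in 21 of 31 non-dividing and 4 of 13 dividing Tcf7 cells (9.09 to 61.4%), against 5.97% and 7.06% (3.70 to 12%) of cells without Tcf7. Of dividing anti-IL-2 CD4 cells 6 of 12 with Tcf7 (21.1 to 78.9%) and 16.7% without it (6.37 to 32.8%) held Id3. The intervals of these dividing CD4 cells overlap in both libraries.

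Id3 detection was also higher at higher numbers of Tcf7 UMIs, of which the intervals separate only some. In anti-IL-2 CD8 cells Id3 was in 7.66% of 483 cells with 0 Tcf7 UMIs, 58.7% of 75 cells with 1, 64.6% of 99 with 2 to 3, and 89.5% of 57 with 4 or more (78.5 to 96.0%). For anti-IL-2 CD4 cells the shares were 18.7%, 56.3%, 60.8% and 71.3%. The step from 0 to 1 UMI was the widest in both. The intervals of 1 and of 2 to 3 UMIs overlapped in both, and in CD4 cells so did those of 1 and of 4 or more (37.7 to 73.6% and 60.6 to 80.5%). In anti-IL-2 CD8 cells the median depth was 15762 UMIs at 0, and 10441, 12877 and 16004 UMIs at the higher steps, and its part was not tested. Among tacrolimus CD4 cells they were 16 of 237, 6 of 15, 4 of 10 and 15 of 19 cells. The 4 tacrolimus CD8 cells with 4 or more Tcf7 UMIs all held Id3 and were all dividing.

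**Figure D3:**
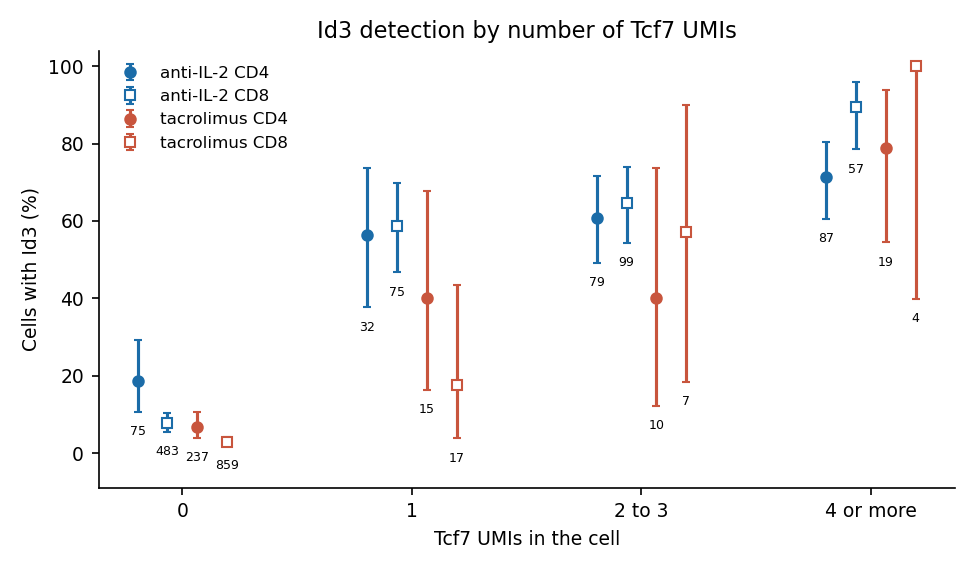
Points give the share of cells (%) with Id3 by the number of Tcf7 UMIs in the same cell, for each library and lineage, with exact 95% intervals and the number of cells under each point. The anti-IL-2 CD8 share went from 7.66% at 0 UMIs to 89.5% at 4 or more.

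The 4 groups of cells made by the 2 genes differed in cycling and in effector genes, with cells of 1 gene alone usually between the others. Among anti-IL-2 CD8 cells 28.9% of those with both genes were dividing (22.0 to 36.6%), 47.2% with Tcf7 alone, 59.5% with Id3 alone and 72.2% with neither (67.8 to 76.3%). Nsg2, a gene of naive T cells, was in 61%, 37.5%, 29.7% and 0.673% of these groups. Ccr7, the lymph-node homing receptor, was in 38.4%, 20.8%, 10.8% and 1.57%. Havcr2, which encodes the inhibitory receptor TIM-3, ran the other way, with 5.66%, 25.0%, 35.1% and 58.7%. Gzma, a granzyme gene, was in 53.5%, 75.0%, 83.8% and 93.9%, whereas Gzmb, the main cytotoxic granzyme, was in 93.1% to 99.6% of all 4 groups.

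In CD4 cells Gzmb was lowest in cells with both genes and highest in cells with neither. Among anti-IL-2 CD4 cells it was in 28.9% of cells with both genes (21.2 to 37.6%), 34.3% with Tcf7 alone (23.3 to 46.6%), 10 of 14 with Id3 alone and 90.2% with neither (79.8 to 96.3%). The groups with both and with Tcf7 alone overlapped. Cxcr5, the receptor that draws T cells into follicles, was in 46.9%, 32.9%, 2 of 14 and 4.92%. Among tacrolimus CD4 cells, with 25, 19, 16 and 221 cells, Gzmb was in 16.0%, 68.4%, 75.0% and 95.5%. There the cells with both genes stood apart from each of the other groups in Gzmb (4.54 to 36.1% against 43.4 to 87.4% for Tcf7 alone) and in Nsg2, at 72.0% (50.6 to 87.9%) against 21.1% (6.05 to 45.6%). Of these 25 cells 16.0% were dividing, against 47.4%, 75.0% and 71.5% in the other groups.

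Genes that went with Tcf7 were ranked by the depth-binned odds ratio within each library and lineage, over genes in 10 to 95% of the cells, and called at a ratio of at least 2 or at most 0.5. With Tcf7 101 of 658 genes (15.3%) were called higher and 176 (26.7%) lower in anti-IL-2 CD4 cells. The counts were 66 of 739 (8.93%) and 188 (25.4%) in anti-IL-2 CD8 cells, and 48 of 726 (6.61%) and 249 (34.3%) in tacrolimus CD4 cells. Id3 was among the higher genes in all 3, as the third highest in anti-IL-2 CD8 cells and the highest with a ratio in tacrolimus CD4 cells. In the simulated library too many genes were called lower in CD8 cells, with either gene. In simulated CD4 cells too few were called lower with Tcf7 (84 against 120 true). With Id3 the numbers there were close (101 against 105), but 22 of those called were not truly lower. Tacrolimus CD8 cells were not ranked for Tcf7, since only 28 held it. These are associations between genes of the same cells, and lists are read against the shares just given. Genes entered by their share over cells with and without Tcf7 together, so those found mostly in the larger group pass more readily. That group held Tcf7 in anti-IL-2 CD4 cells (198 of 273). It lacked Tcf7 in anti-IL-2 CD8 (483 of 714) and tacrolimus CD4 cells (237 of 281). How far this set the counts of higher and lower genes, with Tcf7 or Id3, was not tested.

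In anti-IL-2 CD8 cells Ccr6, Nsg2, Id3, Ccr7, Dapl1 and Rgs10 had the highest ratios with Tcf7. Ccr6, a chemokine receptor, was in 33.8% of cells with Tcf7 and 1.45% without it (odds ratio 34.4). Nsg2 was in 53.7% and 2.90% (32.9), Ccr7 in 32.9% and 2.28% (19.6), and Dapl1, a gene of naive and memory CD8 cells, in 27.7% and 2.48% (16.1). Rgs10, a regulator of G-protein signalling, was in 79.2% and 21.5% (14.3). At the other end stood Cxcr6, a receptor of tissue-homing effector cells, in 31.2% and 84.1% (0.090), and Havcr2 in 11.7% and 56.9% (0.105). Glrx, which encodes glutaredoxin, was in 18.6% and 68.1% (0.112), Gzma in 60.2% and 93.2% (0.119), and 1500009L16Rik and Wdr95 had ratios of 0.113 and 0.123. These ratios stayed between 0.082 and 0.161 when bins were split by cycling.

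In anti-IL-2 CD4 cells the highest ratio was that of Fam101b. It was in 52.5% of cells with Tcf7 and 4.0% without it (odds ratio 20.7), and Matk, a kinase that inhibits Src family kinases, in 39.9% and 2.67% (17.0). Ltb, which encodes lymphotoxin beta, was in 98.0% and 74.7% (13.8), Tox2, a transcription factor of follicular helper and chronically stimulated cells, in 51.5% and 9.33% (12.8), and Cxcr5 in 41.9% and 6.67% (12.7). Gm14085 had a ratio of 11.8, and Bace2, in 14.6% of Tcf7 cells and 0 of the other 75 (a share of up to 4.0%), had no ratio. Lowest were 1500009L16Rik (0.063), Stmn1, a microtubule regulator of dividing cells (0.065), Gzmb, in 30.8% and 86.7% (0.068), and the cell cycle genes Ccnb2 (0.083), 2810417H13Rik (0.093) and Rrm2 (0.093). With bins split by cycling Gzmb stood at 0.090 and Rrm2 at 0.288.

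In tacrolimus CD4 cells Id3 was followed by Il6ra, the IL-6 receptor, in 40.9% of cells with Tcf7 and 4.64% without it (odds ratio 12.9). Tnfsf8, which encodes the CD30 ligand, was in 50% and 7.59% (12.3), and Tbc1d4, a regulator of glucose transporter traffic, in 38.6% and 5.06% (12.1). Gpx1 (7.09) and Ifi204 (6.74) completed the highest 6 with a ratio, and Hspe1, in 100% and 91.1%, had none. Gzmb was the lowest, in 38.6% of the 44 cells with Tcf7 (24.4 to 54.5%) and 94.1% of the 237 without it (90.3 to 96.7%), a ratio of 0.034. Rrm2 (0.057), Glrx (0.058), Cdk1 (0.058), Rfc3 (0.060) and Hist1h2bb (0.071) followed, of which all but Glrx are genes of DNA synthesis, mitosis or histones.

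**Figure D4:**
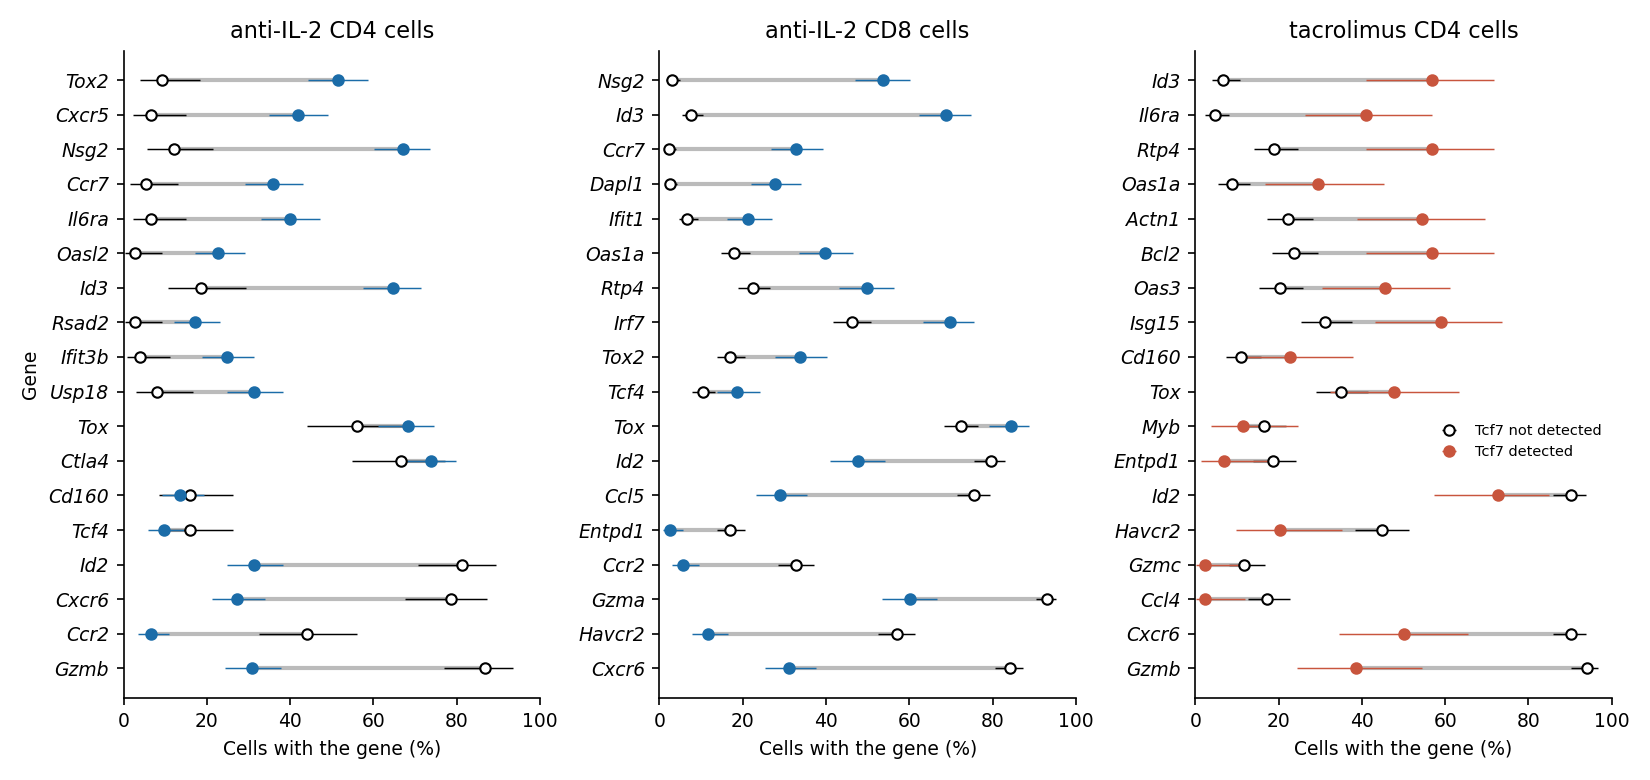
Each row is a gene, and points give the share of cells (%) with that gene among cells with Tcf7 (filled) and without it (open), with exact 95% intervals, for the 3 classes with enough Tcf7 cells. Genes are among the list members with the most extreme odds ratios, ordered by that ratio. Nsg2 in anti-IL-2 CD8 cells goes from 2.90% to 53.7%, and Gzmb in tacrolimus CD4 cells from 94.1% to 38.6%.

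Calls were partly shared between classes, which have no cells in common. Of the 594 genes tested in both lineages of the anti-IL-2 library, 34 were higher with Tcf7 in both, 50.7% of the 67 called in CD4 and 59.6% of the 57 called in CD8 cells. They included Id3, Nsg2, Ccr7, Rgs10, Ltb, Tox and Tox2. Between CD4 cells of the libraries, with 600 genes tested in both, 28 were shared, 43.8% of 64 in the anti-IL-2 and 59.6% of 47 in the tacrolimus library, among them Id3, Tnfsf8, Il6ra, Tbc1d4, Bcl2 and Ltb. Among lower genes 119 of the 594 were shared by the anti-IL-2 lineages, 72.6% of 164 and 87.5% of 136. How much of this overlap chance would give was not tested.

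Genes of stem-like, naive and memory T cells went with Tcf7 in each class. Of the 13 measured, 9 could be tested in anti-IL-2 CD4 cells, and 7 were higher and 0 lower (median log2 odds ratio 2.44, against -0.07 over all genes tested). The 7 were Cxcr5, Nsg2, Ccr7, Il6ra, Il6st, Bcl2 and Actn1. Among anti-IL-2 CD8 cells 8 of 10 were higher and 0 lower (median 2.53 against -0.25), among them Nsg2, Ccr7 and Il7r, the IL-7 receptor gene. For tacrolimus CD4 cells 3 of 5 were higher and 0 lower (2.04 against -0.57). These were Il6ra, Actn1, in 54.5% and 22.4%, and Bcl2, a survival gene, in 56.8% and 23.6%. With bins split by cycling 6, 8 and 3 remained higher by count.

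Effector and cytotoxic genes were lower with Tcf7. All 18 tested members were lower in anti-IL-2 CD4 cells (median log2 odds ratio -2.50), 15 of 19 in anti-IL-2 CD8 cells (-2.21) and 15 of 21 in tacrolimus CD4 cells (-1.51), and 0 were higher in each. Ccr2, a receptor of inflammatory homing, was in 6.57% of anti-IL-2 CD4 cells with Tcf7 and 44.0% without it, and in 5.63% and 32.7% of anti-IL-2 CD8 cells. Ccl5, a chemokine gene of effector cells, was in 29.0% and 75.6% of anti-IL-2 CD8 cells (odds ratio 0.136), but with the integration shift left in its ratio was 1.21. Ccl4 was in 2.27% and 17.3% of tacrolimus CD4 cells. Split by cycling, 15, 15 and 14 members were lower.

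Of 4 measured NK-cell markers, Nkg7 is also on the effector list. The summed level of the 4 was lower in cells with Tcf7, with medians of 3.30 against 13.3 UMIs per 10000 in anti-IL-2 CD4 cells (5th to 95th percentiles 0 to 21.8 and 1.22 to 35.7), 11.8 against 16.8 in anti-IL-2 CD8 cells and 5.92 against 14.3 in tacrolimus CD4 cells. All 4 were detected in each of these classes, and their part in the effector result was not tested. The 12 myeloid markers differed less, at medians of 0.991 and 1.46, 1.29 and 1.90, and 1.22 and 1.85. At least 1 of the 25 measured pancreas genes was in 75.0% of tacrolimus CD4 cells with Tcf7 and 75.5% without it, and in 12.6% and 5.33% of anti-IL-2 CD4 cells.

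Type I interferon response genes went with Tcf7. Of 14 tested in anti-IL-2 CD4 cells 13 were higher and 0 lower (median log2 odds ratio 1.84). Oasl2, which senses viral RNA, was in 22.7% of cells with Tcf7 and 2.67% without it, and Usp18, a brake on interferon signalling, in 31.3% and 8.0%. Of 10 tested in anti-IL-2 CD8 cells 8 were higher and 0 lower (1.36), with Ifit1, an antiviral gene, in 21.2% and 6.63% and Irf7, a transcription factor of the response, in 69.7% and 46.2%. Of 7 tested in tacrolimus CD4 cells 5 were higher and 0 lower (1.71), with Rtp4 in 56.8% and 19.0% and Isg15, a ubiquitin-like modifier, in 59.1% and 31.2%. Split by cycling, 11, 7 and 4 were higher.

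Follicular helper genes went with Tcf7 in the anti-IL-2 library, where 4 of 8 were higher in CD4 cells (Tox2, Cxcr5, Sostdc1 and Izumo1r) and 3 of 5 in CD8 cells (Ccr6, Tox2 and Cd200), with 0 lower. Tox2 and Cd200 are also on the exhaustion list below and Cxcr5 on the stem-like list above, so these calls are counted in both. Among tacrolimus CD4 cells 0 of 6 were higher and Maf, a transcription factor of these cells, was lower, in 47.7% and 68.8%. With bins split by cycling Maf was not called (odds ratio 0.523, against 0.457). Cxcr5 was in too few tacrolimus CD4 cells to be tested, but 9 of the 25 with both genes held it and 0 of the 221 with neither, which allows a share of up to 1.36%. Whether the lists differed between libraries was not tested.

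Single exhaustion and inhibitory receptor genes were called both ways. Lower calls were no more frequent than over all genes (25.4% in anti-IL-2 CD8, 26.7% in anti-IL-2 CD4, 34.3% in tacrolimus CD4 cells). List medians of the log2 odds ratio were, in that order, -0.16, 0.23 and -0.10, against -0.25, -0.07 and -0.57 over all genes. In anti-IL-2 CD8 cells Tox2 (33.8% of cells with Tcf7, 17.0% without it), Tox (84.4% and 72.5%) and Cd200, which encodes an immune-regulatory surface glycoprotein, were higher, while Havcr2 and Entpd1, which encodes the ectoenzyme CD39 (2.6% and 17.0%), were lower, of 11 tested. For anti-IL-2 CD4 cells Tox2 and Tox, a transcription factor of chronic stimulation, were higher and 0 of 7 lower. Among tacrolimus CD4 cells Cd160 was higher and Havcr2 (20.5% and 44.7%) and Entpd1 lower, of 10. With bins split by cycling Cd160 was not called (odds ratio 1.73, against 2.19).

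Cell cycle genes were lower with Tcf7. Of S phase genes 14 of 18, 13 of 20 and 15 of 20 were lower in anti-IL-2 CD4, anti-IL-2 CD8 and tacrolimus CD4 cells, and of G2 and M phase genes 23 of 23, 24 of 25 and 24 of 25. Mki67, which encodes the proliferation antigen Ki-67, was in 34.1% of tacrolimus CD4 cells with Tcf7 and 70.9% without it. With bins split by cycling, a split made from the same genes, 4, 0 and 7 S phase genes and 11, 4 and 4 G2 and M phase genes were lower.

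**Figure D5:**
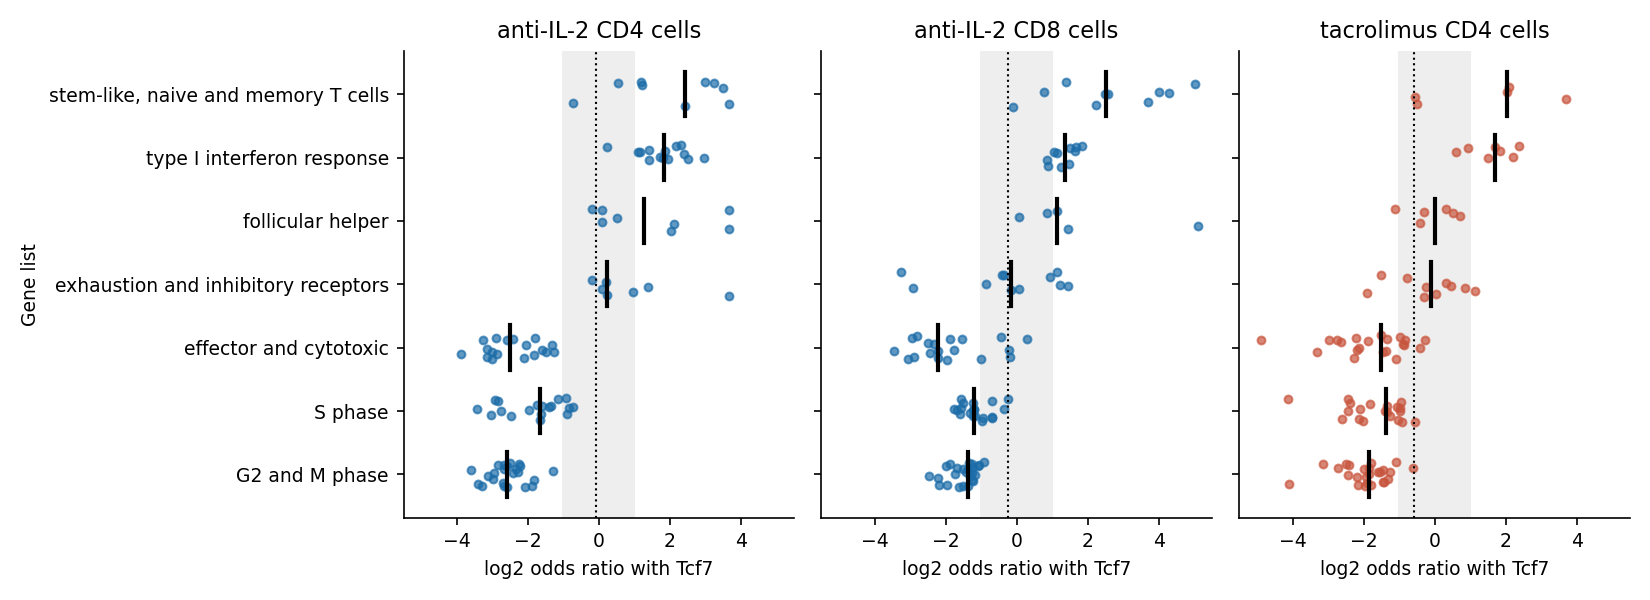
Each point is a gene, placed by its log2 odds ratio with Tcf7 over 5 depth bins, for 7 gene lists and the 3 classes with enough Tcf7 cells. Thick bars mark list medians, the dotted line the median of all genes tested, and the grey band ratios that were not called. Stem-like and interferon genes lie to the right in each panel (medians of 2.53 and 1.36 in anti-IL-2 CD8 cells), and effector and cell cycle genes to the left.

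With Id3 as the reference gene, 43 of 658 genes (6.53%) were higher and 127 (19.3%) lower in anti-IL-2 CD4 cells, 63 of 739 (8.53%) and 171 (23.1%) in anti-IL-2 CD8 cells, and 50 of 726 (6.89%) and 242 (33.3%) in tacrolimus CD4 cells. Since most Id3 cells held Tcf7, these values share cells with those above. Tcf7 was the gene with the highest ratio in all 3. Among anti-IL-2 CD8 cells it was followed by Nsg2 (55.1% of cells with Id3, 5.79% without it), Ccr6 (35.2% and 3.09%) and Ltb (95.4% and 64.3%), with Havcr2 (11.2% and 54.1%), Entpd1 (2.04% and 16.2%), Glrx and Wdr95 lowest. Among anti-IL-2 CD4 cells Rgs10 (89.4% and 56.5%), Ltb and Iigp1, an interferon-induced GTPase gene (19.0% and 4.58%), came next. Among the lowest there were 1500009L16Rik and the effector genes Ccr2 (4.23% and 30.5%) and Ccl5 (5.63% and 32.8%).

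In tacrolimus CD4 cells Il6ra (36.6% of cells with Id3, 5.83% without it), Tbc1d4 and Tnfsf8 followed Tcf7. Gzmb was in 39.0% and 93.3% (odds ratio 0.035), and Hist1h2ak, Plk1 and Hist1h1b were next. Ccl3, Entpd1, Klrg1 and Hist1h2bh were in 0 of the 41 cells with Id3, which allows up to 7.32%, and in 18.3%, 19.6%, 12.9% and 16.3% of the other 240. Stem-like genes were higher with Id3 for 4 of 9, 8 of 10 and 3 of 5 tested in the 3 classes, and effector genes were lower for 13 of 18, 15 of 19 and 18 of 21. Interferon genes were higher for 6 of 14, 6 of 10 and 6 of 7. With bins split by cycling the counts were 3, 9 and 3 for stem-like, 12, 15 and 18 for effector, and 4, 3 and 6 for interferon genes. Some lower ratios with Id3 in anti-IL-2 CD8 cells turned over 1 with the integration shift left in, namely Ccl5 (0.145 to 1.07), Birc5 (0.232 to 1.36) and Ube2c (0.258 to 1.10).

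Tacrolimus CD8 cells held Id3 in 35 of 887 cells, under the limit set by the B-lineage or erythroid cells. The genes that went with Id3 are therefore given as values only. There 113 of 740 genes (15.3%) were higher and 117 (15.8%) lower. The highest were Dtymk, Itgb1, C1qbp and Mrpl12, each in 34 of the 35 cells, and 13 further genes in all 35 had no ratio. The lowest were Entpd1 (2.86% and 23.0%), Esm1 (2.86% and 22.7%), Prf1, the perforin gene (51.4% and 83.8%), and Ube2s (82.9% and 90.6%). Of effector genes 7 of 22 were lower, Ccl5 among them (37.1% and 80.3%), and of stem-like genes Bcl2 and Myb were higher among 4. Without depth bins 219 genes were higher and 38 lower, so these counts depend on the depth of the cells.

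The relatives of the 2 genes were sparsely measured. Of 7 listed genes of the E protein and Id family the tables held Id1, Id2, Id3 and Tcf4, and of 14 listed TCF/LEF and Wnt pathway genes only Tcf7l2 and Frat2. Id2 was the most widely detected. Its plain shares over cycling states ran against Id3 in the anti-IL-2 library, not matched for the greater depth of dividing cells. Id2 was in 35.1% of non-dividing and 91.7% of dividing anti-IL-2 CD4 cells (28.9 to 41.7% and 80 to 97.7%), and in 57.9% and 76.9% of anti-IL-2 CD8 cells. In tacrolimus cells it was in 82.7% and 90.2% of CD4 and 95% and 94.4% of CD8 cells, with overlapping intervals in each lineage. Id2 was lower with Tcf7 in all 3 classes, with odds ratios of 0.123, 0.256 and 0.351, and lower with Id3, at 0.218, 0.316 and 0.220. That direction was lost in anti-IL-2 CD8 cells with the integration shift left in, with ratios of 1.06 for Tcf7 and 2.95 for Id3.

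Tcf4, which encodes the E protein E2-2, was in 12.8% of non-dividing and 13.2% of dividing anti-IL-2 CD8 cells and was higher with Tcf7 there (18.6% and 10.4%, odds ratio 2.42). Across the other classes Tcf4 was in 3.55% to 16.7% of cells. Id1 was found in at most 1.03% of cells of a class. Frat2, which stabilises beta-catenin, was in 2.08% to 13.5% of cells of the classes and was higher with Tcf7 in anti-IL-2 CD8 cells (19.5% and 9.11%, odds ratio 2.66). Tcf7l2, another TCF/LEF factor, was in at most 0.345% of cells of a class.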

How the data were processed

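Per the labels' protocols, spleen cells went through a droplet-based 5′ single-cell RNA-seq kit, with 1 library per treatment. Cell Ranger 3.1.0, Seurat and mm10 are named in the submitters' processing notes. The filters on cells and genes are not given in the sources used here, and T-cell receptor sequencing was not analysed here.

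The deposited values are natural log values of 2000 genes. Tacrolimus values gave whole UMIs for 100% of entries (tolerance 0.001) at 50000 per cell. Of anti-IL-2 values 13.9% were below 0 and 42.0% exactly 0. The tacrolimus table also repeated 308 anti-IL-2 columns, used once. Shares were planned for UMI data, so anti-IL-2 UMIs were first recovered: the shift of each gene was fitted on 150 factors or on the 30 nearest cells, and a value above 0.5 of 1 UMI was a detection. Settings were chosen among many on a simulated pair of libraries and on totals that could be read directly, of which 94.6% (184 cells) and 96.8% (190 cells) fell within 1.25-fold, in-sample. The procedure was then tested on a further simulated pair used for no choice. It lost more detections than it added, and the shares with Tcf7 or Id3 fell more in dividing than in non-dividing cells. It missed many lower genes in CD4 cells, and called too many genes lower in CD8 cells.

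T cells had at least 1 T-cell marker and more of them than markers of any other lineage (B and plasma, erythroid, myeloid or NK). The pancreas list was left out of that rule after it was seen that it would drop 224 tacrolimus and 2 anti-IL-2 cells. The B-lineage or erythroid reference cells were also defined after seeing the data. No doublet caller was run, and cells with Cd4 and Cd8 were set aside. Shares have exact Clopper-Pearson 95% intervals, and a count of 0 allows 3 counts of the total. Both cover counting error only. Associations are Mantel-Haenszel odds ratios over 5 depth bins, with at least 30 cells in the smaller arm. Named genes were the 6 highest and 6 lowest ratios with Tcf7, the 4 highest and 4 lowest with Id3, all measured E protein, Id, TCF/LEF and Wnt genes, and up to 4 extreme members of each other list. Genes shown across the 4 groups of cells come from these, and a few that the rule named are not reported here. Members and lists were chosen with earlier results of these data known. Alternatives covered lineage, gene minimum, shift, totals, cycling limit, thinning, bins and the ratio called. Python 3.11.15, numpy 2.4.6, scipy 1.17.1, scikit-learn 1.9.0, pandas 2.3.3, scanpy 1.11.5 and, for simulation, Seurat 5.3.0 were used.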

Additional observations from a re-analysis of the deposited data

Results flagged for a closer look

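Id3 in CD8 cells moved in opposite directions between the libraries. Non-dividing minus dividing cells gave 28.1 percentage points in the anti-IL-2 library and -2.16 points in the tacrolimus library, and that difference was not tested. The tacrolimus value rests on 3 of 141 non-dividing cells, and after thinning to 5000 UMIs the shares were 2.14% and 1.63%.

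Cells with both Cd4 and Cd8 entered no comparison, and both genes were detected in them. In the anti-IL-2 library Tcf7 was in 63.9% and Id3 in 37.3% of 83 such cells, at a median of 16004 UMIs. In the tacrolimus library Tcf7 was in 15.4% and Id3 in 13.2% of 91 cells, at 15181 UMIs. In each library these shares lie between those of CD8 and CD4 cells. Whether such droplets held 2 cells was not tested.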

How the results depend on the processing

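There is 1 library per treatment, so no replicate could be left out. No paired analysis was possible because the libraries share no replicates beyond 1 each. All 34 values compared (shares, co-detection ratios and counts of genes) stayed within their range under lineage by clusters, and under 2 alternatives added after seeing the data, a T-cell rule without myeloid and NK lists and pancreas as a lineage. The lower cycling limit moved 0 of 16 shares, and 0.5 added to both sums moved 0 of 18 values. Without a gene minimum Id3 in anti-IL-2 non-dividing CD4 cells was 50.9%, and 82 genes were lower with Id3 there. With the shift left in, anti-IL-2 non-dividing shares were 68.6% (Tcf7) and 47.8% (Id3) in CD4 and 33.7% and 36% in CD8 cells. In those CD8 cells the Tcf7 to Id3 ratio was 9.13, 43 genes were higher and 92 lower with Tcf7, and 113 lower with Id3. Ratios that reversed there were Birc5 (1.36), Ccl5 (1.07), Id2 (2.95) and Ube2c (1.10) with Id3, and Ccl5 (1.21) and Id2 (1.06) with Tcf7. In cells with a readable total, 61 CD4 and 123 CD8, Tcf7 was in 89.3% of non-dividing CD4, 68.8% of non-dividing CD8 and 34.9% of dividing CD8 cells, and Id3 in 66.3% of non-dividing CD8 cells. There 77 genes were higher with Id3 in CD4 and 272 lower in CD8 cells, Il6st with Id3 in CD4 cells reversed (0.997), and the CD4 co-detection table had a 0 sum, so no ratio could be had. The higher cycling limit gave 44.5% and 37.6% for Tcf7 and Id3 in anti-IL-2 non-dividing CD8 cells. Thinning gave Id3 in 4.52% of dividing CD4 and 1.63% of dividing CD8 tacrolimus cells. Thinned anti-IL-2 shares, an addition made after seeing the data, were, non-dividing and dividing, 73.1% and 10.6% (Tcf7 CD4), 46.2% and 8.51% (Id3 CD4), 38.2% and 11.5% (Tcf7 CD8), and 34.9% and 6.25% (Id3 CD8). Without depth bins 219 genes were higher and 38 lower with Id3 in tacrolimus CD8 cells. Bins crossed with dividing left 86 and 69 genes lower with Tcf7 and Id3 in anti-IL-2 CD4, 67 and 55 in anti-IL-2 CD8, and 145 with Tcf7 in tacrolimus CD4 cells, and reversed Rrm2 with Id3 in anti-IL-2 CD8 cells (1.54). Called at a ratio of 3, higher and lower genes were 53 with Tcf7 (higher only), and 10 and 77 with Id3 in anti-IL-2 CD4 cells. They were 29 and 63 with Tcf7 and 22 and 45 with Id3 in anti-IL-2 CD8 cells, 23 and 140 with Tcf7 and 19 and 157 with Id3 in tacrolimus CD4 cells, and 42 and 31 with Id3 in tacrolimus CD8 cells. Single-gene ratios were counted once per setting, and in all 119 moved, 8 reversed and 1794 did neither. With the shift left in 43 moved, 6 reversed and 87 did neither. In cells with a readable total 26 moved, 1 reversed and 61 did neither. A stricter ratio can only lower the counts of genes called, and causes of the other changes were not tested. In tacrolimus CD8 cells most detections were 1 UMI.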

Other observations

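Cells without any Cd4 or Cd8 UMI but with other T-cell markers were few. In the anti-IL-2 library 5 of 11 held Tcf7 and 3 held Id3. In the tacrolimus library 7 of 30 held Tcf7 and 4 held Id3. Among cells that the marker rule did not call T cells, Tcf7 was in 32 of 152 under anti-IL-2 and in 4 of 186 under tacrolimus, and Id3 in 27 and 5.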
